A study of Homo sapiens with 3 samples.

Results

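The genes described here are the cyclins, the cyclin-dependent kinases (CDKs), the CDC25 phosphatases, the CDK inhibitors and the factors around them that carry a cell from G1 through S phase and mitosis. Their expression was measured in SKOV-3, an established human ovarian cancer cell line, after depletion of G9a, the histone H3 lysine 9 methyltransferase encoded by EHMT2. The members were 50 genes listed by role and phase, and a member was measured by every probe set of the array that carries its symbol and no other. By this rule 49 of the 50 had a probe set, 111 probe sets in all, out of 19775 genes and 54675 probe sets on the array. CDKN2C had no probe set with a single symbol and was not analysed here. All cells were SKOV-3 transduced with an shRNA construct and kept under puromycin until stably selected. They expressed either of the hairpins against G9a (G9a shRNA1 and G9a shRNA2) or the control hairpin against luciferase (Luc shRNA). The transduced cells of each condition were measured on 1 Affymetrix array, 3 arrays in all, so no value has a replicate error and no test across replicates was possible. Differences are described by their size, and both G9a shRNAs are compared with the same Luc shRNA array, so an error on that array enters both ratios alike.

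Progress through the cell cycle is driven by CDKs that are switched on by cyclins made at set times. D-type cyclins with CDK4 and CDK6, then E-type cyclins with CDK2, phosphorylate the pocket proteins of the RB family and release the E2F factors, which drive genes for DNA replication. Cyclin A and cyclin B with CDK1 then bring the cell into mitosis, while CDC25 phosphatases remove, and WEE1 and PKMYT1 add, the phosphates that hold CDKs inactive. CDK inhibitors of the CIP/KIP and INK4 families oppose the kinases, and many of these genes are themselves transcribed in 1 phase only.

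The values are MAS5 signals, a brightness on a linear scale that the authors deposited for each probe set. A gene is represented by its brightest probe set, and a log2 ratio is the log2 of the signal with a G9a shRNA over the signal with Luc shRNA. Signals of different genes come from different probes and are not compared. A gene was counted when the highest of its 3 signals reached the median of all values (12.0), and was called bright when it reached the 75th percentile (89.7). Of the members, 48 passed the first level and 44 the second. The member under the first level was CDKN2B, an INK4 inhibitor, which read 3.31 on the Luc shRNA array, 1.34 on that of G9a shRNA1 and 2.11 on that of G9a shRNA2. Among all bright genes the log2 difference between the G9a shRNA arrays had an SD of 0.24, and among bright members of 0.23, a spread that holds both measurement error and real differences between the shRNAs. By this measure 4.18% of bright genes lay over 1.5-fold apart between these arrays and 0.407% over 2-fold.

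EHMT2 itself was lower on both G9a shRNA arrays, with a signal on its brightest probe set of 182 for Luc shRNA, 29.7 for G9a shRNA1 and 79.2 for G9a shRNA2. A dimmer EHMT2 probe set read 27.6, 23.9 and 16.4, and the remaining one was under the median on all 3 arrays. Epithelial markers were present, and all 6 passed the first level. Of these, 5 were higher with both G9a shRNAs, among them KRT8 with signals of 849, 1087 and 1381 in the order Luc shRNA, G9a shRNA1 and G9a shRNA2, the order used below. Of 3 leukocyte markers with a probe set none passed, of 3 endothelial markers PECAM1 alone did, and of 5 fibroblast and mesothelial markers DCN, CALB2 and UPK3B did, none of these 4 being bright. Among all bright genes the median log2 ratio was 0.00 with G9a shRNA1 and 0.13 with G9a shRNA2. The arrays' median signals were 11.7, 12.3 and 11.8.

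Most members lay close to their Luc shRNA level. Of the 44 bright members, 38 lay within 1.5-fold of Luc shRNA with both G9a shRNAs, and the other 6 were CDC25A, CCNE1, E2F1, E2F2, CCND3 and CDKN2D. CDC25A and CCNE1 were the members more than 2-fold higher with both shRNAs, 2 of 48, and no member was more than 2-fold lower with both. Among all genes past the first level, 2.57% were more than 2-fold higher with both and 1.66% more than 2-fold lower. Counting a gene also where 1 of the shRNAs passed 2-fold and the other pointed the same way added E2F2, for 3 members higher and 0 lower, beside 5.26% of all genes higher and 5.59% lower. At 1.5-fold with both shRNAs the counts stayed at 2 higher and 0 lower, beside 6.84% and 4.78% of all genes. Read against these shares, which include dim genes, the members did not stand out in how many passed a fold threshold. Most members were bright, so the shares among bright genes are the closer comparison. Among bright genes the shares were smaller, 0.611% higher and 0.467% lower at 2-fold with both, and 3.76% and 2.22% at 1.5-fold, against the same 2 of 44 bright members at either size.

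**Figure D1:**
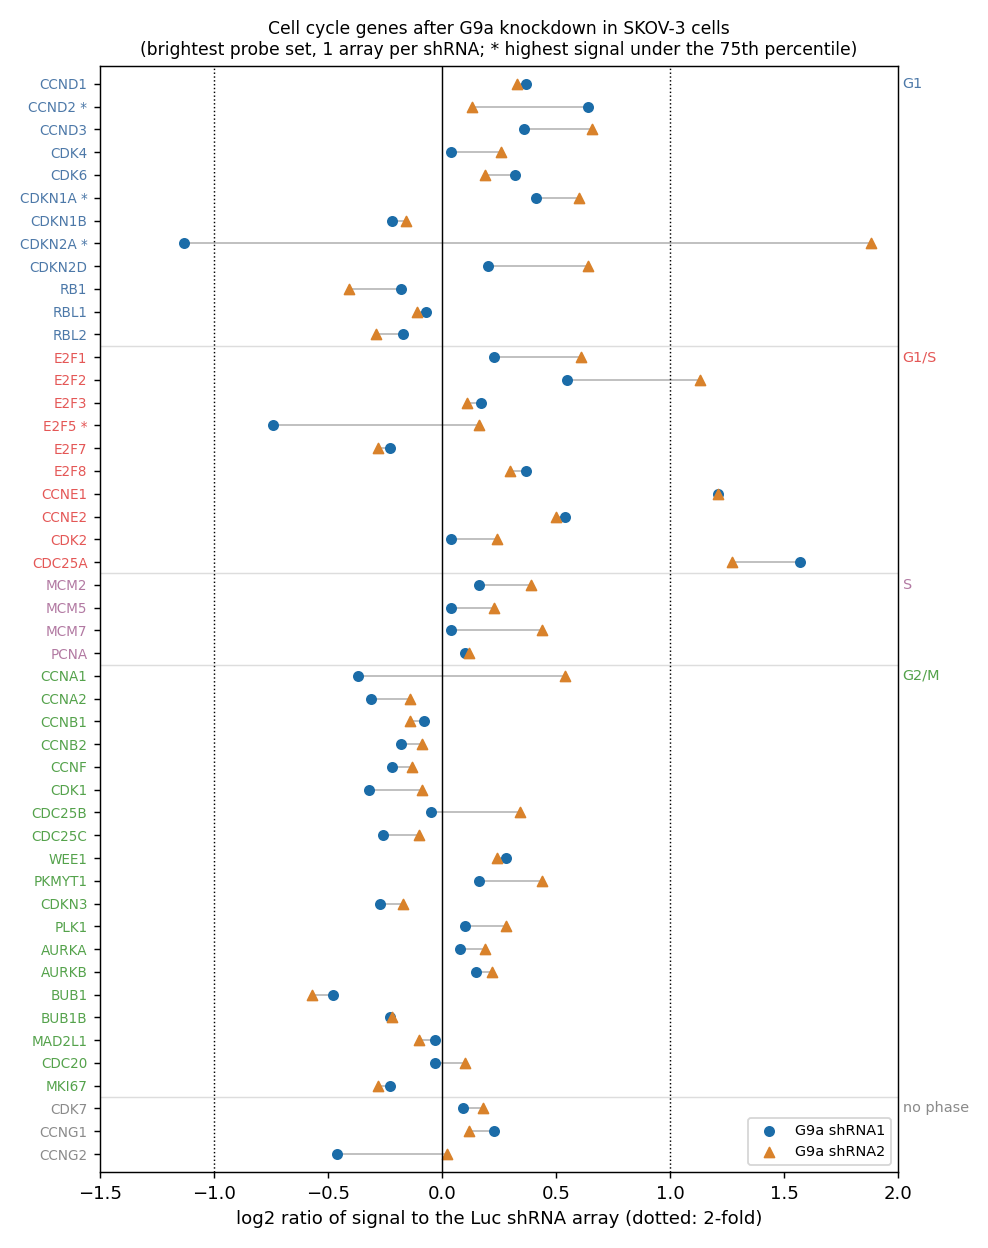
Log2 ratio of each G9a shRNA array to the Luc shRNA array (x axis) for the 48 members past the first level (y axis, grouped and coloured by phase). Circles are G9a shRNA1, triangles G9a shRNA2, dotted lines mark 2-fold, and an asterisk marks a member whose highest signal was under the 75th percentile. Of the bright members, CDC25A and CCNE1 lie past the upper 2-fold line with both shRNAs and E2F2 with G9a shRNA2.

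In direction, 26 members were higher with both shRNAs, 16 were lower with both and 6 pointed opposite ways. The median over the 48 members of the mean log2 ratio was 0.14, with 0.04 for G9a shRNA1 and 0.19 for G9a shRNA2, beside 0.05 over all genes past the first level. For the bright members, 54.5% were higher with both and 36.4% lower with both, whereas for all bright genes the shares were 46.9% and 28.9%. The phases differed more from each other than the members did from the array. The median was 0.30 over 12 G1 members, 0.38 over 10 G1/S members, 0.19 over 4 replication genes and -0.11 over 19 G2/M members. Over the 9 bright G1 members the median was 0.15. The G1/S median was 0.29 after median centring, which is explained below, and 0.30 after quantile normalization. With all probe sets of a gene averaged, those under the median included, the G1/S median was 0.62. In bulk RNA, fewer cells in a phase and less RNA per cell cannot be told apart.

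CDC25A, the phosphatase that activates CDK2 at the start of S phase, had the highest mean ratio of the 48 members past the first level. Its signals were 221, 659 and 534, which is 2.98-fold and 2.41-fold over Luc shRNA. A second CDC25A probe set read 129, 348 and 258. The dimmest read 37.0, 96.3 and 100.1. All 3 probe sets were thus higher on both G9a shRNA arrays, by log2 ratios from 0.99 to 1.57. CCNE1, the E-type cyclin that partners CDK2, had signals of 181, 417 and 418, or 2.31-fold with each shRNA. This rests on 1 probe set, because the other CCNE1 probe set was under the median on all 3 arrays, at 1.39, 0.857 and 2.10. CCNE2, the sister cyclin, differed less, with signals of 271, 395 and 383 and log2 ratios of 0.54 and 0.50. Its dimmer probe set gave 32.7, 56.3 and 62.0, again higher on both G9a shRNA arrays. CDK2, the kinase both cyclins bind, was at 539, 555 and 638, a log2 ratio of 0.04 and 0.24. A dimmer CDK2 probe set differed more, with 53.7, 80.2 and 105 and log2 ratios of 0.58 and 0.96. All 4 members of this cyclin E and CDK2 step were higher with both shRNAs, with a median log2 ratio of 0.86.

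**Figure D2:**
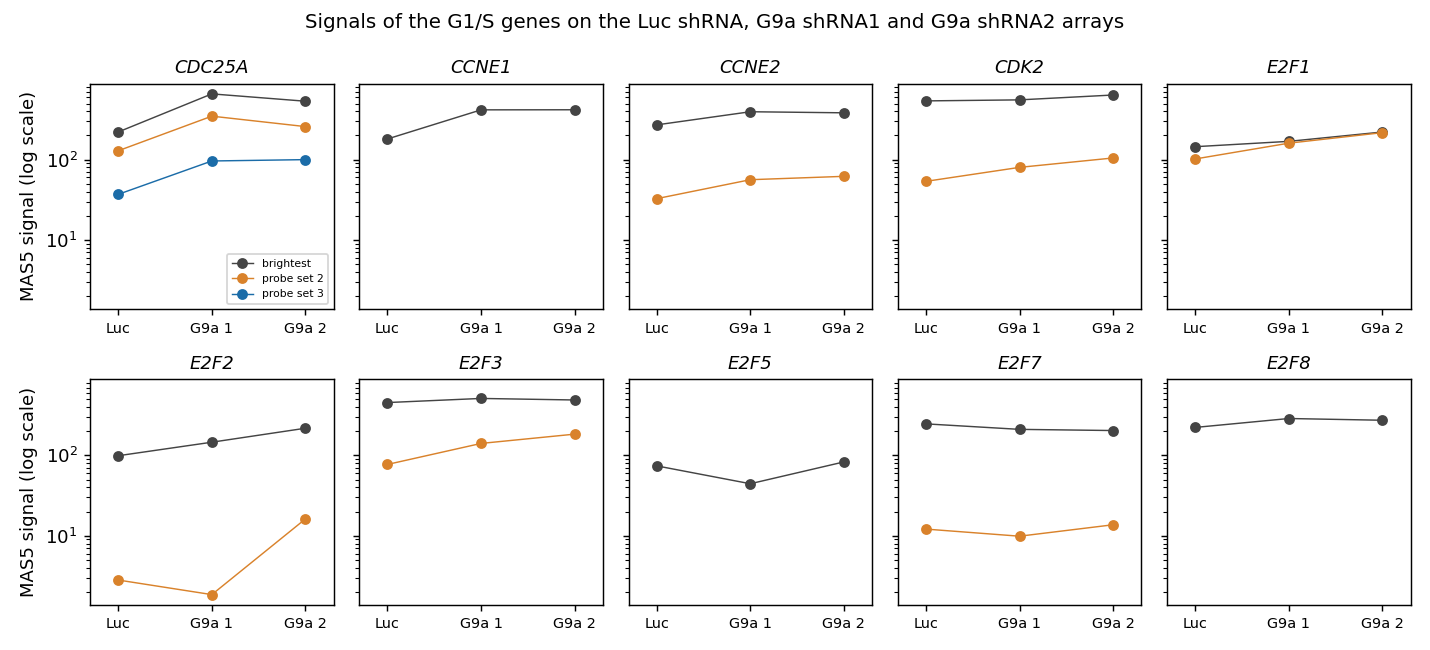
MAS5 signal (y axis, log scale) on the 3 arrays (x axis) for every probe set past the first level of the 10 G1/S members, 1 panel per gene and 1 line per probe set. All 3 CDC25A lines go up from Luc shRNA to both G9a shRNA arrays, the brightest from 221 to 659 and 534, while the brightest CDK2 line is nearly level, from 539 to 555 and 638.

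The bases upstream of both genes are printed to show what lies before the members with the largest ratios. They are from RefSeq, build GRCh38.p14, 250 bases up to the start of transcription and written 5′ to 3′ on the gene's strand, and capitals mark an E2F motif or a CCAAT box. The E2F motif was searched as TTTCCCGC, TTTCGCGC, TTTGCCGC or TTTGGCGC and the CCAAT box as CCAAT, both on either strand.
CDC25A, chr3:48188418-48188667, minus strand: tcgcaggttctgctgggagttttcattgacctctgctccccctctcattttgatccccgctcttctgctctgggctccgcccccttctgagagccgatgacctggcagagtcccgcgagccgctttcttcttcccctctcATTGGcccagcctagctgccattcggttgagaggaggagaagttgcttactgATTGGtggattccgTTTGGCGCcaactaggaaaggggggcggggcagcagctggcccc
CCNE1, chr19:29811741-29811990, plus strand: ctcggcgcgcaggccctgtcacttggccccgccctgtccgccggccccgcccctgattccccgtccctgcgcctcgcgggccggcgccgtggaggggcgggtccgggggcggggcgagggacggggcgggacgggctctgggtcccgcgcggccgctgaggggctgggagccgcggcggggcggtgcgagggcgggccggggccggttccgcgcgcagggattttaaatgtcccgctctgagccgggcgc
In CDC25A the E2F motif TTTGGCGC starts 44 bases before the start of transcription, and CCAAT boxes in the reverse orientation, ATTGG, start 110 and 58 bases before it. Neither motif, in these letters, is in the CCNE1 stretch. Promoter windows of 300 bases, from 250 before to 50 after the start, were found for 40 of the 50 members. The E2F motif was in 4 of 6 windows of G1/S members (CDC25A, E2F1, E2F2 and E2F3), in 3 of 3 of replication genes (MCM2, MCM7 and PCNA), in 1 of 12 of G1 members (RBL1) and in 1 of 16 of G2/M members (CDK1). Over all 27305 genes with a window the share was 3.99%. A match describes the letters and not a bound site. For E2F1 and E2F2, shown because both genes encode E2F factors, an E2F motif is in capitals in 30 bases of each promoter. E2F1 held a second one, GCGGCAAA on the other strand, which starts 33 bases before the start of transcription and is partly inside the printed stretch, where it is left in lower case.
E2F1, chr20:33686387-33686416, minus strand: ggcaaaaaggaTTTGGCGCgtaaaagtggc
E2F2, chr1:23531257-23531286, minus strand: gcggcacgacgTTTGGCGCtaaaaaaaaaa

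The activating E2F factors E2F1, E2F2 and E2F3 were higher with both shRNAs at their brightest probe sets, by unequal amounts. E2F2 had signals of 99.1, 146 and 218, more than 2-fold higher with G9a shRNA2 only, with log2 ratios of 0.55 and 1.13. After median centring, in which the arrays were set to the same median log2 signal over bright probe sets, or after quantile normalization the ratio with G9a shRNA2 was no longer past 2-fold. A dimmer E2F2 probe set, at 2.81, 1.85 and 16.2, pointed opposite ways and passed the first level through the G9a shRNA2 array only. E2F1 had signals of 145, 169 and 221. Its dimmer probe set read 102, 160.4 and 217, with log2 ratios of 0.65 and 1.08 in place of 0.23 and 0.61. E2F3 was nearly level at its brightest probe set, at 455, 512 and 489.8, and after median centring or quantile normalization this probe set pointed opposite ways. Its dimmer probe set read 77.2, 141 and 184. For E2F1 and E2F3 the dimmer probe set thus showed the larger difference. The repressor E2F5 was lower with G9a shRNA1 and higher with G9a shRNA2, at 74.1, 44.4 and 83.0. The late repressors E2F7 and E2F8 parted, E2F7 being lower at 247, 211 and 204 and E2F8 higher at 223, 288 and 274. Over the 6 E2F genes the median log2 ratio was 0.24.

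Of the G1 cyclins and their kinases, the 4 bright members CCND1, CCND3, CDK4 and CDK6 were higher with both shRNAs. CCND1, the main D-type cyclin of epithelial cells, was at 723, 934 and 908. Its other probe set past the first level gave log2 ratios of 0.51 and 0.53, the same direction. CCND3 had the larger difference in G9a shRNA2, with 370, 474 and 584. CCND2 stood near the background, at 8.38, 13.1 and 9.18, passed the first level through the G9a shRNA1 array only, and turned direction with G9a shRNA2 after the median centring over bright probe sets. CDK4 was at 1834, 1887 and 2202, level with G9a shRNA1 and higher with G9a shRNA2. CDK6 read 416, 520.5 and 475, and all 6 of its probe sets past the first level were higher on both G9a shRNA arrays. The dimmest of these, at 10.3, 10.5 and 12.8, passed that level through the G9a shRNA2 array only. A CDK6 probe set under that level was lower on both, at 9.11, 8.40 and 4.25.

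The CDK inhibitors had no common direction. CDKN1A, which encodes p21, had signals of 52.5, 70.0 and 79.6, under the bright level on all 3 arrays. CDKN1B, which encodes p27, was lower at 515, 443 and 459.7. CDKN2D, an INK4 inhibitor of CDK4 and CDK6, was at 74.8, 86.0 and 117, so that G9a shRNA2 passed 1.5-fold and G9a shRNA1 did not, and only the G9a shRNA2 signal reached the bright level. CDKN2A, which encodes p16 and ARF, gave 6.18, 2.82 and 22.7, values near the background that pointed opposite ways and passed the first level through G9a shRNA2 only. With CDKN2B under the first level, the INK4 locus gave no usable ratio.

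The pocket proteins, which hold E2F factors in check, were lower with both shRNAs in 3 of 3 members, with a median log2 ratio of -0.23. RB1 was at 642, 567 and 482. RBL2, which encodes p130, was at 399, 354 and 327, and RBL1, which encodes p107, at 189.5, 181 and 176. The differences were small, and in each of these genes a dimmer probe set did not share them. For RB1 it read 29.2, 38.6 and 45.4, higher on both G9a shRNA arrays. For RBL2 it read 54.8, 54.5 and 57.3. For RBL1 1 dimmer probe set read 24.4, 24.1 and 25.3.

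The 4 replication genes were higher with both shRNAs at their brightest probe sets. MCM2, MCM5 and MCM7 encode subunits of the replicative helicase. MCM2 was at 727, 813 and 952. MCM7 was at 355, 366 and 480.3, while its second probe set, also bright, pointed opposite ways at 376, 365 and 401. MCM5 was at 301, 309.6 and 352, and its dimmer probe set at 87.3, 81.6 and 91.7. PCNA, the sliding clamp of the replication fork, was close to level at 2848, 3056 and 3089.6, and its direction with G9a shRNA2 depended on the scaling of the arrays. The medians of the 4 were 0.07 with G9a shRNA1 and 0.31 with G9a shRNA2, the second of which stands beside 0.13 for all bright genes.

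The members that act in G2 and mitosis ran the other way, by small amounts. All 19 were bright, 11 were lower with both shRNAs, 5 were higher with both and 3 pointed opposite ways. The share lower with both was 57.9%, against the 28.9% of all bright genes given above. The counts of lower and higher were 12 and 5 after median centring and 10 and 5 after quantile normalization. No G2/M member passed 1.5-fold with either shRNA at its brightest probe set, and the ratios ran from -0.57 to 0.54.

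Among the mitotic cyclins and CDK1, 5 of 6 were lower with both shRNAs, with a median log2 ratio of -0.16. CCNA2, the cyclin of S phase and G2, was at 808, 653 and 733. CCNB1, the main mitotic cyclin, was at 2606, 2469.5 and 2363, and CCNB2 at 1847, 1626 and 1732. At these probe sets the 3 genes had the Luc shRNA array highest, with no large gap. A second bright CCNA2 probe set pointed opposite ways, at 497, 426 and 512. CCNF, a cyclin that serves as an F-box subunit of a ubiquitin ligase, was at 172, 148 and 157, though its dimmer probe set was higher at 31.1, 40.4 and 37.6. CDK1, the mitotic kinase, was at 3210.1, 2576 and 3026 on its brightest probe set. On a second CDK1 probe set the order was turned, at 1352, 1552 and 1611, and the same held on another, at 913, 1077 and 1235. The direction for CDK1 therefore depends on the probe set. CCNA1, a cyclin best known from the germ line, pointed opposite ways at 299, 231 and 434.

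The switch that controls CDK1 was mixed. WEE1, an inhibitory kinase, was higher at 696, 846 and 822, and its dimmer probe set agreed in direction at 93.5, 123 and 150.2. PKMYT1, the membrane-bound counterpart of WEE1, was at 259.9, 291 and 353. CDC25C, an activating phosphatase of mitotic entry, was lower at 335, 280.1 and 313, but its dimmer probe set was higher at 27.3, 39.8 and 49.5. CDC25B, which also activates CDK1, was at 2340.1, 2264 and 2970.3, higher with G9a shRNA2 only. CDKN3, a phosphatase that acts on CDKs, was lower on both of its probe sets, at 1043, 862 and 927 and at 952, 712 and 756. Thus of the 3 CDC25 phosphatases only CDC25A, at the G1/S step, was past 1.5-fold at its brightest probe set.

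Of the mitotic kinases and checkpoint genes, the Aurora and Polo kinases were slightly higher and the BUB genes and MKI67 lower. BUB1, a kinase of the spindle checkpoint, had the lowest mean ratio of the 48 members past the first level. Its signals were 614, 440.0 and 415. A dimmer BUB1 probe set read 27.7, 19.2 and 26.9, close to level with G9a shRNA2. Another read 14.0, 5.57 and 9.27. It passed the first level through the Luc shRNA array only, so its lower direction followed from the filter. BUB1B, the relative of BUB1 in the checkpoint, was at 2042, 1738 and 1758. MKI67, which encodes the proliferation marker Ki-67, was at 766, 652 and 633. Of its other probe sets past the first level 1 was close to level, at 484, 456 and 485, and the others were lower with both shRNAs, at 268, 189 and 239.9 and at 226, 185 and 182. PLK1 was at 247, 265 and 301, and AURKB, the kinase of the chromosomal passenger complex, at 449.7, 501 and 523. AURKA was higher at 1217, 1284 and 1386, whereas a second probe set of like brightness was lower at 1279, 1198 and 1255. MAD2L1, another checkpoint protein, and CDC20, the activator of the anaphase-promoting complex that it restrains, had log2 ratios between -0.10 and 0.10.

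**Figure D3:**
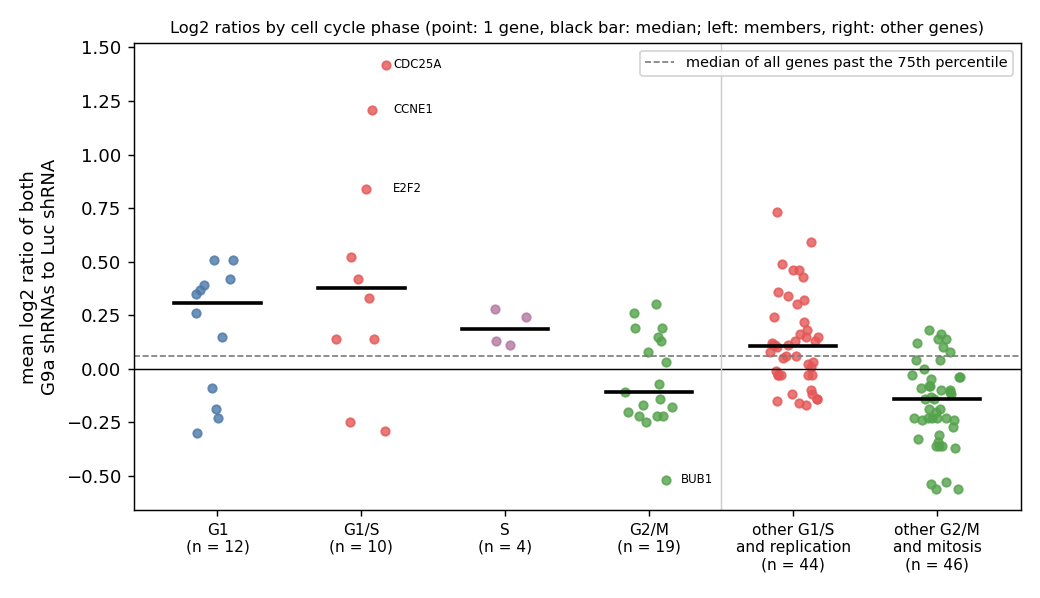
Mean of both log2 ratios per gene (y axis) for the members of G1 (12 genes), G1/S (10), S (4) and G2/M (19) and for other genes of G1/S and replication (44) and of G2/M and mitosis (46) that are not members. Each point is a gene, black bars are medians and the dashed line is the median of all bright genes, 0.06. The G1/S median is 0.38 and the G2/M median -0.11, with points of every group on both sides of 0 except S.

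The CHR element, a sequence known from genes expressed in G2 and mitosis, was searched as TTTGAA on either strand. It was in 10 of 16 windows of G2/M members, in 1 of 12 of G1 members, 1 of 6 of G1/S members and 0 of 3 of replication genes, beside 18.2% of all genes with a window. The CCAAT box was in 14 of 16 windows of G2/M members and in 39.7% of all genes. For the mitotic cyclin CCNB2, for CDK1 and for PLK1 and CDC20, which stand for the kinases and the exit from mitosis, 30 bases around 1 such element are shown with the element in capitals. CDK1 and CDC20 held further such elements that are not printed. The element shown for CDK1 starts 69 bases before the start of transcription, and another starts 13 bases before it.
CCNB2, chr15:59105105-59105134, plus strand: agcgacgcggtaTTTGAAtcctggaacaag
CDK1, chr10:60778397-60778426, plus strand: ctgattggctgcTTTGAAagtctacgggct
PLK1, chr16:23678848-23678877, plus strand: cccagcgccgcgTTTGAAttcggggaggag
CDC20, chr1:43358904-43358933, plus strand: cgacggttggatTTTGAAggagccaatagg
At their brightest probe sets, PLK1 was higher with both shRNAs and CDC20 was near level. The other G2/M members with the element, namely BUB1B, CCNB2, CCNF, CDC25C, CDK1, CDKN3, MAD2L1 and MKI67, were lower with both. Among all 19 G2/M members 11 were lower with both. A link between the element and the direction was not tested.

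The members not tied to a phase were close to Luc shRNA. CDK7, the kinase that activates other CDKs, was at 1068, 1137 and 1212. CCNG1 was at 1019.5, 1194 and 1112, and turned direction with G9a shRNA2 under median centring. CCNG2 was at 283, 206 and 287, lower with G9a shRNA1 only, and 1 of its dimmer probe sets was higher with both at 14.4, 20.4 and 34.9.

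Probe sets of the same gene are the only repeat measurement on an array. Of the members, 28 had at least 2 probe sets past the first level, and the mean log2 ratio of the probe sets of a gene spanned a median of 0.27. In 9 of the 28 they differed in sign, namely RB1, RBL1, RBL2, MCM5, CCNF, CDK1, CDC25C, AURKA and CCNG2. The dimmer probe sets gave a higher ratio than the brightest in 20 of 28 members, or 71.4%, with a median difference of 0.13 on the log2 scale, whereas over the 6692 genes of the array with at least 2 such probe sets the share was 55.5% and the median 0.05. Of the control probe sets for RNA integrity, those of β-actin differed between Luc shRNA and both G9a shRNAs and those of GAPDH were nearly level. The ratio of 3′ to 5′ signal of β-actin was 3.68, 1.83 and 1.47, and that of GAPDH was 1.15, 1.12 and 1.14. The part of this in the ratios of the members was not tested. CDC25A was higher on each of its 3 probe sets, whereas the small differences of the pocket proteins and of CDK1 turned with the probe set.

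**Figure D4:**
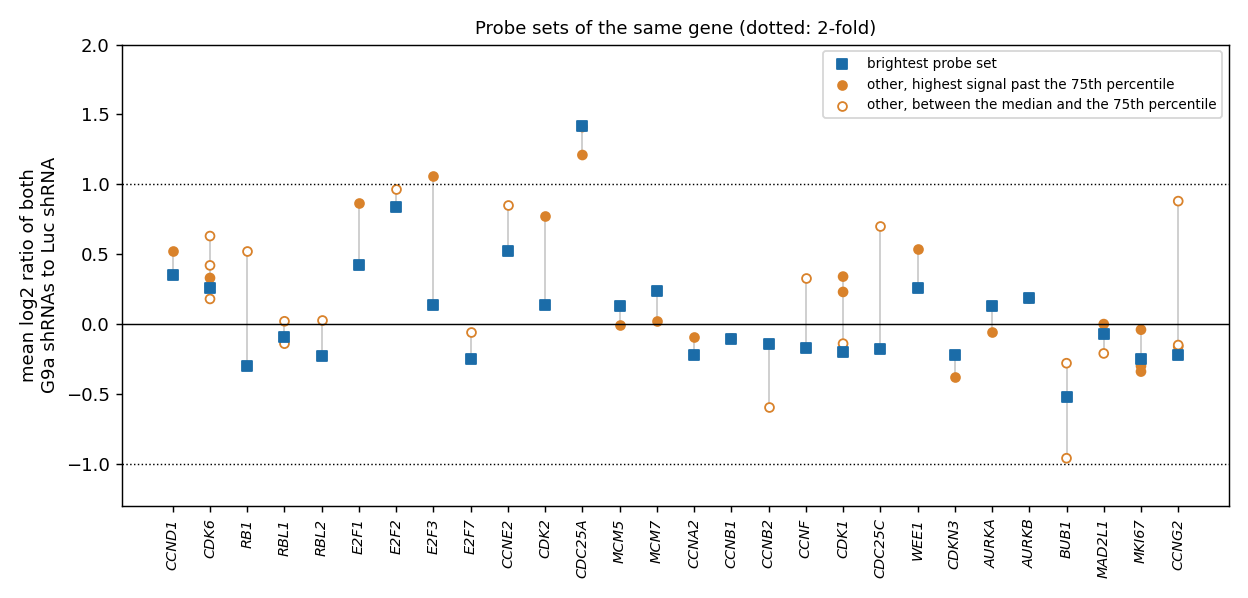
Mean of both log2 ratios (y axis) for each probe set past the first level of the 28 members that have at least 2 of them (x axis). Squares are the brightest probe set, filled circles other bright ones and open circles probe sets between the median and the 75th percentile. The 3 CDC25A points lie together between 1.21 and 1.42, while the points of 9 genes, CDK1 among them, lie on both sides of 0.

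Genes of the same pathways that are not members gave the same order of phases. Of 47 further G1/S and replication genes, 44 passed the first level, 23 were higher with both shRNAs and 7 lower, with a median of 0.10. After median centring the counts were 17 and 17 and the median 0.02, and after quantile normalization they were 21 and 12 with a median of 0.06, so the direction of this list depended on the scaling. The genes furthest from 0 were MCM10 at 259, 384 and 394, CDT1 at 224, 333 and 298, PRIM1 at 485, 639 and 693 and CLSPN at 72.3, 101 and 142, which encode a replication initiation factor, the licensing factor that loads the MCM helicase, the primase subunit and the adaptor of the replication checkpoint. CLSPN reached the bright level on the G9a shRNA arrays only. Among all bright genes 46.9% were higher with both shRNAs and 28.9% lower. Of 46 further G2/M and mitosis genes, 31 were lower with both shRNAs, or 67.4%, and 6 higher, with a median of -0.14. After median centring 37 were lower and after quantile normalization 35. The genes furthest from 0 were BIRC5, which encodes survivin, at 1046, 679 and 768, the spindle motor KIF11 at 594, 408 and 395, the microtubule binder NUSAP1 at 2963, 1968 and 2116 and the mitotic entry factor CDCA3 at 838, 518 and 627. In both lists 0 genes passed 1.5-fold with both shRNAs, beside 3.76% of all bright genes higher and 2.22% lower. Of the genes in these lists 44 of 44 and 45 of 46 were bright.

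Of 12 genes of the DREAM and MuvB complexes and partners of E2F, which repress or drive cell cycle genes by phase, 7 were higher with both shRNAs and 2 lower, with a median of 0.14. Among all genes past the first level 44.0% were higher with both and 30.8% lower. E2F4, the E2F factor that binds p107 and p130, was past 1.5-fold with both, at 85.3, 134 and 142. Its signal reached the bright level on the G9a shRNA arrays only. E2F6 was at 196, 243 and 239, LIN52 at 135, 162 and 153, and the E2F dimer partner TFDP1 was lower at 612, 527 and 558.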

How the data were processed

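Total RNA from SKOV-3 cells with G9a shRNA1, G9a shRNA2 or Luc shRNA was hybridised to 1 Affymetrix array each, 1 array per condition. The authors deposited MAS5 signals, an intensity per probe set on a linear scale. The MAS5 settings are not given in the sources used here. The values were used as deposited. Probe sets were named through the array annotation and current RefSeq symbols, and those with several symbols were left out. A gene was represented by its brightest probe set (by mean log2 signal) and counted when the highest of its 3 signals reached the median of all values (12.0), with 89.7 as the stricter level. Called means more than 2-fold with both shRNAs. Calls were tested on simulated data. Signal over background and the number of arrays limit the precision. All 50 members could be named, with all 3 signals for those past 1.5-fold with both shRNAs or 2-fold with 1, those whose probe sets differ in sign, and the brightest and dimmest of each group. At most 4 genes of each wider list were named, the bright ones furthest from 0 by the smaller of their ratios. Signals of some further members are also given. The members and lists were chosen with earlier results of these data known. Alternatives were other filters, quantile normalization, median centring, raising low signals to the median, the mean over probe sets, other thresholds and each shRNA alone. In a further one, probe sets marked as cross-hybridising were used only where a gene had no other. Python 3.11.15, numpy 2.4.6, pandas 2.3.3 and matplotlib 3.10.9 were used.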

Additional observations from a re-analysis of the deposited data

How the results depend on the processing

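CDC25A and CCNE1 were more than 2-fold higher with both shRNAs under 7 of 8 other settings of filter, probe set choice, floor and scaling. With every probe set of a gene averaged the 2 members called were CDC25A and CDK2, and CCNE1 had a mean of 0.58. These averages included probe sets under the median, at 0.996, 10.8 and 5.89 for CDK2 and 1.39, 0.857 and 2.10 for CCNE1. A threshold of 3-fold left 0 members higher with both. The count of members more than 2-fold lower with at least 1 shRNA, 0 as reported, was 1 with no filter (CDKN2B) and 3 with the mean over all probe sets (AURKA, BUB1 and CCNB2). The averages of AURKA, BUB1 and CCNB2 also included probe sets under the median. E2F2 was not past 2-fold after median centring or quantile normalization. The median over the members, 0.14, was 0.06 after median centring and 0.04 with G9a shRNA1 alone. The cause of these moves was not tested. The direction was the same under the deposited, median centred and quantile normalized values in 41 of 48 members, and differed in CCND2, E2F3, PCNA, MAD2L1, CDC20, CCNG1 and CCNG2. The Luc shRNA array has no second array to replace it.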

Other observations

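Other parts of the cell cycle machinery differed little. Among all genes past the first level 44.0% were higher with both shRNAs and 30.8% lower, and the counts of each list below stand beside these shares. Of 24 other cyclins and CDKs past the first level, 12 were higher with both shRNAs and 6 lower. CDK19, a kinase of the Mediator complex, was lower at 435, 199.6 and 246 (Luc shRNA, G9a shRNA1, G9a shRNA2, the order of all values here), past 1.5-fold with both and past 2-fold with 1 of them, while its paralog CDK8 was higher at 129, 193 and 169.6. CDK9, the elongation kinase, was at 283, 371 and 483, and CDK14 at 144, 104 and 111. Of 20 subunits and partners of the anaphase-promoting complex and SCF ubiquitin ligases, 12 were higher and 4 lower. CDC27, a core subunit of the former, was at 1449.8, 857 and 1168, ANAPC13 at 1346, 1057 and 1023, ANAPC7 at 284, 359 and 363, and its ubiquitin-conjugating enzyme UBE2S at 1951, 2711 and 2654.

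Of 16 checkpoint kinases and partners, 9 were higher with both and 5 lower, with a median log2 ratio of 0.07, or -0.01 after median centring. CHEK1, the kinase of the replication checkpoint, was at 237, 337 and 336, CHEK2 at 63.7, 86.9 and 120.3, RAD9A at 58.6, 82.8 and 123 and RAD50 at 415, 584 and 629. RAD9A was the gene of this list past 2-fold, with G9a shRNA2. Both RAD9A and CHEK2 reached the bright level, by which genes were named, on the G9a shRNA2 array only. Of 17 genes often induced together with CDKN1A, 8 were higher with both and 8 lower. GADD45A, a stress gene of growth arrest, was higher at 1309.5, 2365 and 1992 and FAS, a death receptor, at 89.4, 108 and 129, whereas PLK2 was lower at 1288, 940.1 and 1001 and POLH, a translesion polymerase, at 121, 74.9 and 86.9. FAS reached the bright level on the G9a shRNA arrays only and POLH on the Luc shRNA array only.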
